A study of Homo sapiens with 4 samples.

Results

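Zinc finger (ZNF) genes on human chromosome 19 were followed through lists of alternative splicing events from long-read RNA sequencing. A gene was taken where its events lay on chromosome 19 and its Ensembl identifier matched, by position and strand, a protein-coding RefSeq gene whose symbol is ZNF and a number. The choice gave 163 genes with at least 1 event, of 250 such RefSeq genes on the chromosome and of 11931 Ensembl genes with an event in the series. They held 2222 of 287868 distinct events.

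The cells were Huh7, a human hepatoma line, which the labels also describe as liver. Of 4 libraries, 2 came from cells transfected with an siRNA against STAMBPL1 (siSTAMBPL1), which encodes a deubiquitinating enzyme related to AMSH, and 2 from cells given a negative control siRNA (siNC). All were transfected with lipofectamine 2000 and sequenced as full-length cDNA on a PacBio Sequel. Nothing in the labels says that replicates were separate cultures, so p-values measure only the spread between these libraries, which may be technical.

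C2H2 zinc finger proteins bind DNA through tandem fingers, and many of those encoded on chromosome 19 start with a KRAB domain. That domain binds TRIM28 (KAP1), which brings the histone methyltransferase SETDB1 and heterochromatin to target sites, among them transposable elements. In a typical KRAB zinc finger gene, short early exons hold the untranslated start and the KRAB boxes, and 1 long last exon holds the whole finger array. A change of first exon can thus alter the promoter, a skipped exon can remove a KRAB box, and an early last exon can leave the fingers out. None of these protein consequences was measured here.

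Each library's list gives an event, its coordinates on hg38 and the transcripts that carry its 2 forms, with no read number. Transcripts were either Ensembl transcripts or transcripts built from the long reads (PB transcripts). A form is called unannotated where only PB transcripts carry it. Whole lists held 119505 and 94432 events in siSTAMBPL1 replicates 1 and 2, against 140317 and 142215 in siNC replicates 1 and 2. PB transcripts, which stand here in place of depth, numbered 25463 and 17584 in siSTAMBPL1 and 32307 and 32750 in siNC. STAMBPL1 itself had 1 and 1 events in siSTAMBPL1 and 3 and 6 in siNC; a number of events is not an RNA level, so this does not measure the knockdown. Of 21 hepatocyte and hepatoma markers, 6 had an event, including KRT8 and HNF4A, while ALB and AFP had none. Events were also listed for 2 of 4 endothelial, 1 of 3 biliary, 1 of 5 stromal and 1 of 5 blood markers. A gene whose transcripts show no alternative form gives no event, so the lists cannot show that a marker was missing.

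The starts of these genes are shown first, because the share of first exon events was lower in these genes than elsewhere. RefSeq promoters (GRCh38.p14, the assembly of hg38) were at hand for 146 of the 163 genes. Of the 10 genes with most events, 5 had a window holding at least 3 listed first exon starts, and a stretch of each is shown. Each is read on the plus strand and ends at most 30 bases past the RefSeq start and past the most upstream listed start. Capitals mark bases at which a first exon on any of the 4 lists starts.
ZNF544, chr19:58228787-58228936: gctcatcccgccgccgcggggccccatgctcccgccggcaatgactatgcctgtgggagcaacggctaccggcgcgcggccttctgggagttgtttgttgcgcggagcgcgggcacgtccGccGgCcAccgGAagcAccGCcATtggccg
ZNF302, chr19:34677519-34677668: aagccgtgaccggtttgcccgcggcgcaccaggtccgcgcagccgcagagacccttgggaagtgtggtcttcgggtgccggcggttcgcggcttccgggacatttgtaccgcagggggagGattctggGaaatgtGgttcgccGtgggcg
ZNF226, chr19:44164953-44165102: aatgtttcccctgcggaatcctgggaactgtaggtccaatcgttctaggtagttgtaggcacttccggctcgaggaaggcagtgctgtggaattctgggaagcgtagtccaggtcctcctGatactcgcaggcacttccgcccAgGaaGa
ZNF875, chr19:37334504-37334653: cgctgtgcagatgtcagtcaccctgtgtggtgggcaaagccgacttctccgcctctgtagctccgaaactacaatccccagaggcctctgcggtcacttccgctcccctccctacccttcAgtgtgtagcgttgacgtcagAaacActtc
ZNF146, chr19:36214976-36215125: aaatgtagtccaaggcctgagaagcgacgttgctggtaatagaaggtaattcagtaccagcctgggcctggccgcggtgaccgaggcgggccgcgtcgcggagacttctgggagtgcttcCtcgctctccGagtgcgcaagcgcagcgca

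In ZNF544, 11 listed starts fell within the bases shown. The RefSeq start itself was on all 4 lists, and so were the unannotated starts 12 and 15 bases past it, while 6 of the 11 were on 1 list only. ZNF302 showed 4 starts, ZNF226 showed 4, ZNF875 showed 3 and ZNF146 showed 2. The stretches of ZNF544, ZNF302 and ZNF226 hold CCGGAAG, the core motif of ETS family factors, on one strand or the other, and those of ZNF875 and ZNF146 do not. Over the full windows of 300 bases, 71 of 187 promoters of these ZNF genes (38.0%) held that motif on either strand, against 12.8% of the 22199 protein-coding promoters in the table. CCAAT was in 50.3%, against 34.7% of all promoters. GGGCGG was in 63.1%, against 56.3%, and TATAAA was in 3.21%, against 9.47%. None of these motifs contains another, though neighbouring matches can share end bases, and a match is a string of letters, not a bound site. Of 401 listed first exon starts in genes with a RefSeq window, 220 (54.9%) lay within 50 bases of a RefSeq start.

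Chromosome 19 ZNF genes had fewer first exon events and more last exon events than all other genes, in each of the 4 libraries. Alternative first exons made up 20.3% and 18.3% of their events in siSTAMBPL1 replicates 1 and 2, and 21.6% and 21.1% in siNC. The mean over libraries was 20.3% ± 1.46, against 39.7% ± 1.82 in all other genes (SD, n = 4), a difference of −19.35 ± 0.52 percentage points. Alternative last exons made up 17.5% and 20.0% of their events in siSTAMBPL1 and 18.5% and 17.9% in siNC. Their mean of 18.5% ± 1.11 stood against 6.31% ± 0.219 in all other genes, a difference of 12.16 ± 1.32 points. No library of either set overlapped the other set for these types.

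Skipped exons, in which an internal exon is left out, were 31.3% ± 0.598 of the ZNF events and 24.6% ± 1.60 of all other events. Alternative 5′ splice sites were 12.4% of the ZNF events, against 8.94%. Alternative 3′ splice sites, at 11.2% against 10.7%, did not keep 1 direction over the 4 libraries. Retained introns were rarer in the ZNF genes, at 2.98%, against 7.10%. ZNF genes on other chromosomes were low in them too, at 3.56% and 4.51% in siSTAMBPL1 and 3.52% and 3.86% in siNC. An exact sign-flip test over 4 libraries cannot go below p = 0.125 (two-sided), which is what it gave for each of these differences except alternative 3′ splice sites (p = 0.25).

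**Figure D1:**
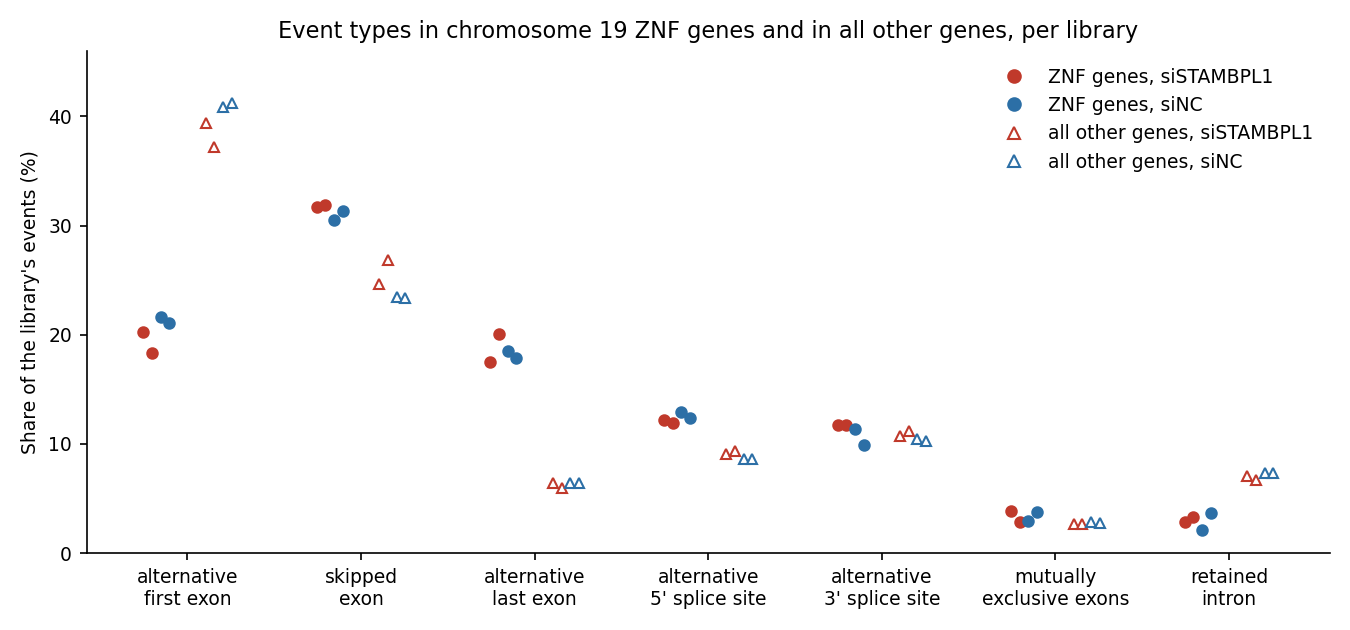
Share of each library's events (percent, y axis) by event type (x axis), with filled circles for chromosome 19 ZNF genes, open triangles for all other genes, red for siSTAMBPL1 and blue for siNC, 1 point per library. First exon events sit near 20% in the ZNF genes and near 40% elsewhere, and last exon events near 18% in the ZNF genes and near 6% elsewhere.

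A few genes with many exon ends make many pairs, so the number of genes with each type was counted too. Among ZNF genes with any event, 32.6% ± 2.79 had a last exon event, against 20.0% ± 1.54 of other genes (SD, n = 4 libraries). First exon events were found in 38.1% ± 4.03 of the ZNF genes, against 52.9% ± 0.748. For skipped exons the proportions were alike, 82.4% ± 1.65 and 82.1% ± 0.274, with differences of −1.09 to 2.64 points over the libraries. Retained introns were found in 12.2% of the ZNF genes, against 35.2% of other genes. ZNF544 and ZNF331 weighed most on the pairs, holding 34.8% of the distinct last exon events and 24.1% of the distinct first exon events of the ZNF genes. Without ZNF544 the last exon difference was 7.95 points. Without ZNF331 the first exon difference was −23.55 points. With distinct exons in place of pairs the first exon difference was −9.16 points and the last exon difference 9.22 points. Among genes that touch no other gene the last exon difference was 5.98 points.

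ZNF genes on other chromosomes lay between the sets in last exon events, with 9.44% and 9.68% in siSTAMBPL1 and 9.62% and 10.9% in siNC. Other genes on chromosome 19 had 6.58% and 7.11% in siSTAMBPL1 and 4.79% and 6.61% in siNC. First exon shares of ZNF genes on other chromosomes were 34.97% and 28.88% in siSTAMBPL1 and 36.03% and 36.42% in siNC. Those of other genes on chromosome 19 were 33.91% and 30.73%, against 37.91% and 38.41%. Both sets lay between all other genes and the chromosome 19 ZNF genes in each library. Skipped exons were 26.24% and 29.3%, against 25.41% and 24.96%, in ZNF genes on other chromosomes. Other genes on chromosome 19 had 21.79% and 23.99%, against 20.67% and 20.13%.

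The last exons of the ZNF genes paired a long exon with a short one. An exon of at least 1000 bases against a shorter one made up 75.8% and 76.1% of their last exon events in siSTAMBPL1, and 73.7% and 76.3% in siNC. The mean of 75.5% ± 1.20 stood against 47.7% ± 1.84 in all other genes (SD, n = 4). Leaving out ZNF544 gave 78.5% ± 4.40. Events with 2 short last exons were 12.2% of the ZNF events, against 43.3%. The median longer exon measured 2340 and 2431 bases in siSTAMBPL1 and 2481 and 2789 bases in siNC. The median shorter exon measured 187 and 187 bases in siSTAMBPL1 and 216 and 187 bases in siNC. In all other genes the medians of the longer exon were 1212 and 1240 bases in siSTAMBPL1 and 1138 and 1124.5 bases in siNC. The long exon was the downstream one in 66.7% and 64.9% of the ZNF pairs in siSTAMBPL1, and in 57.3% and 69.6% in siNC. In all other genes it was 55.6% and 56.0% in siSTAMBPL1 and 58.0% and 58.3% in siNC, so siNC replicate 1 went the other way. The length of 1000 bases was set after the exons had been seen.

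**Figure D2:**
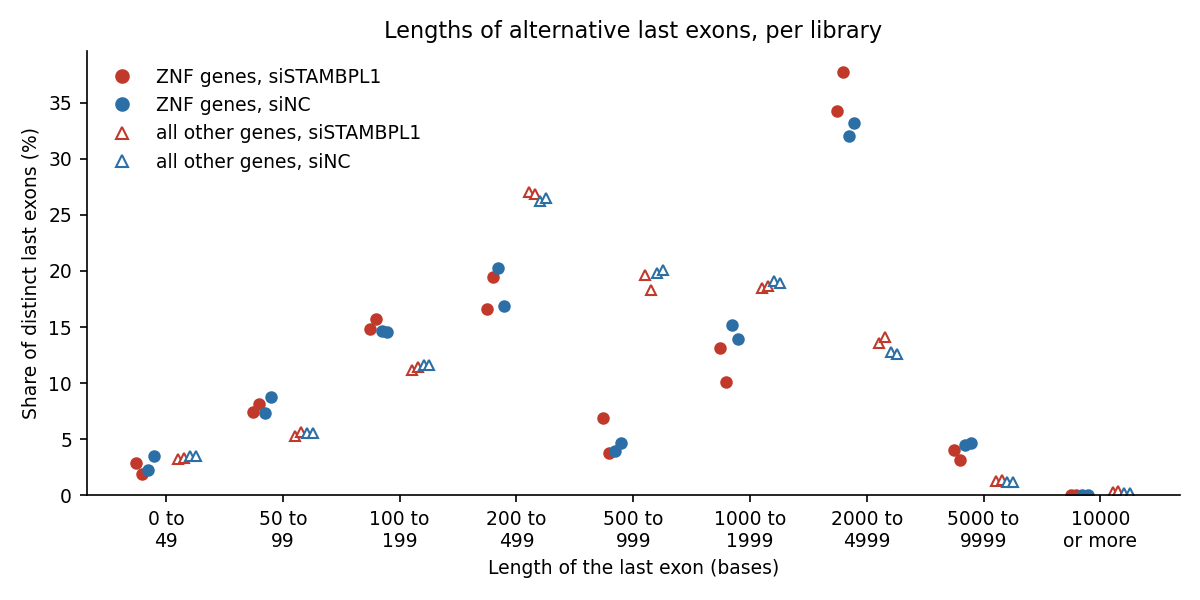
Lengths of the distinct alternative last exons, in classes of bases (x axis), as a share of each library's last exons (percent, y axis), with symbols as in the plot of event types. Exons from 2000 up to 5000 bases make up 32.0% to 37.7% in the ZNF genes and 12.6% to 14.1% in all other genes, and exons from 200 up to 1000 bases are rarer in the ZNF genes.

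ZNF544 (chr19:58228914-58277455, plus strand) had the most events. Its symbol, like those of ZNF254 and ZNF761, was claimed by 2 Ensembl identifiers and went to the one with more positions. It had 71 and 72 events in siSTAMBPL1 and 73 and 92 in siNC, of which 53 and 47 against 50 and 67 were last exon events. The 173 distinct last exon events came from 29 distinct last exons that begin at only 7 acceptor sites. The exon that begins at position 58260851 had 13 different ends, giving lengths of 115 to 3242 bases. Annotated exons that begin at 58247282 (47 and 330 bases), 58251308 (77 bases) and 58277183 (65 bases) were the short partners on all 4 lists. Unannotated ends of the exon at 58247282 reached 3711 to 3927 bases, each on 1 list. Every library listed such a long end, and no end was on more than 1 list.

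ZNF254 (chr19:24033449-24129968) had 28 and 17 events in siSTAMBPL1 and 36 and 17 in siNC. Its last exon events numbered 9 and 12 in siSTAMBPL1, against 21 and 0 in siNC. ZNF875 (chr19:37312837-37364455) had 12 and 20 last exon events in siSTAMBPL1 and 9 and 12 in siNC. ZNF302 (chr19:34675979-34686396) had 8 and 12, against 10 and 8, and ZNF226 (chr19:44165100-44199490) had 8 and 6, against 13 and 6. For ZNF875, ZNF302 and ZNF226 the groups overlapped or met.

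ZNF331 (chr19:53503235-53580269), an imprinted gene, was the leading gene for first exons. It had 43 and 33 first exon events in siSTAMBPL1, against 86 and 57 in siNC, out of 54 and 45 events in all, against 106 and 78. Both siNC libraries were above both siSTAMBPL1 libraries. Its 139 distinct first exon events came from 35 first exons with 15 donor sites, of which 15 exons were on all 4 lists. Single libraries listed 17 and 18 of these exons in siSTAMBPL1, against 22 and 27 in siNC. PB transcripts of the gene numbered 2 and 3 in siSTAMBPL1, against 11 and 11 in siNC. An unannotated first exon at 53538134 to 53538296 was on both siNC lists and on neither siSTAMBPL1 list. It gave 6 of the 9 ZNF331 events found only in siNC. With annotated events alone the log2 change of ZNF331 events was 0.28 in place of −0.47, so the lower number was in events with an unannotated form. With events that hold a PB transcript it was −1.52.

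ZNF559 had 15 and 12 first exon events in siSTAMBPL1 and 4 and 10 in siNC, and ZNF302 had 4 and 18, against 2 and 3. Over all ZNF genes, a gene with alternative first exons had 4.18 ± 0.074 of them per library, against 6.12 ± 0.434 in other genes (SD, n = 4).

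Skipped exons were found in 139 of the 163 genes, as 464 distinct exons. An exon of 127 bases was the most frequent, with 45 exons in 44 genes, or 9.70% of the skipped exons (95% exact Clopper-Pearson interval 7.16% to 12.8%). In all other genes, 245 of 46123 skipped exons had that length, or 0.531% (0.467% to 0.602%), which put it at rank 69 among lengths. The next most frequent length in the ZNF genes, 122 bases, had 14 exons. Libraries listed 36 and 30 of the 127-base exons in siSTAMBPL1, and 31 and 31 in siNC. Of the 45, 19 were on all 4 lists and 37 had Ensembl transcripts in both forms. ZNF genes on other chromosomes had 25 such exons of 590 (4.24%), and other genes on chromosome 19 had 15 of 1945 (0.771%). The intervals cover counting error only, and these lengths were picked after the lengths had been seen, so no test is given.

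**Figure D3:**
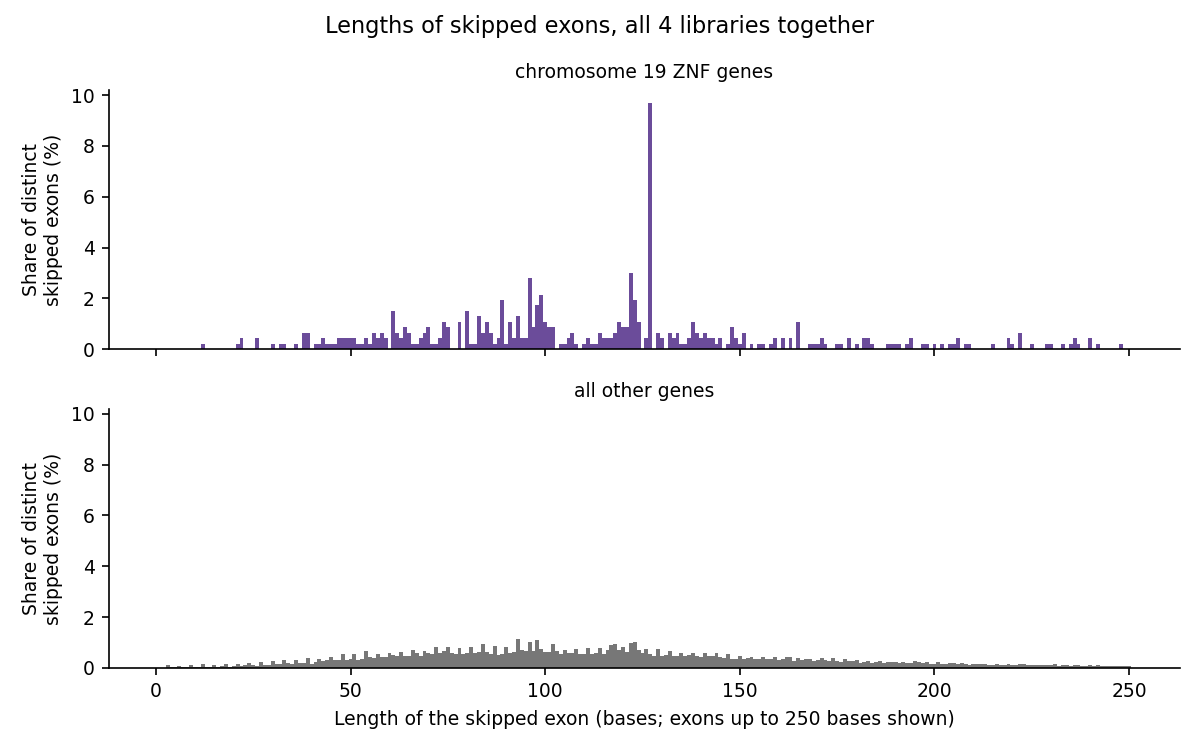
Share of distinct skipped exons (percent, y axis) of each length in bases (x axis, up to 250 bases), over the 4 libraries together, for chromosome 19 ZNF genes above and all other genes below on the same scale. A single length, 127 bases, stands out in the ZNF genes at 9.70% and is at 0.531% in all other genes.

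The 127-base exons ran from chr19:9339193 in the ZNF559-ZNF177 readthrough to chr19:58410091 in ZNF584, with none between ZNF675 and ZNF461. They included chr19:9533840-9533966 in ZNF426, chr19:23663032-23663158 in ZNF675 (known as TIZ, a TRAF6-binding protein), chr19:37347190-37347316 in ZNF875, chr19:44479283-44479409 in ZNF180 and chr19:58185712-58185838 in ZNF274. ZNF274 is known for bringing SETDB1 to the ends of zinc finger genes. A length of 127 bases is not a multiple of 3, so skipping such an exon alone would shift a frame that runs through it. Exons of 96 bases, a multiple of 3, were 13 of 464 (2.80%), against 1.02% in all other genes. ZNF genes on other chromosomes had a like share, 18 of 590 (3.05%). One of the 13 lies in ZNF274 at chr19:58186947-58187042, and ZNF473, known for histone pre-mRNA processing, has one at chr19:50040534-50040629, both on all 4 lists. Multiples of 3 made up 32.3% of the skipped exons in the ZNF genes (28.1% to 36.8%), against 40.4% in all other genes. Whether the 127-base exons are KRAB box exons was not checked, since the exon sequences were not used here.

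By gene, ZNF875 had the most skipped exon events, with 20 and 18 in siSTAMBPL1 and 17 and 15 in siNC. ZNF266 had 6 and 6, against 11 and 11. ZNF254 had 11 and 4, against 9 and 11, ZNF544 had 6 and 8, against 9 and 10, and ZNF331 had 7 and 7, against 8 and 10. Retained introns gathered in ZNF266 (chr19:9412429-9435573), with 6 and 4 in siSTAMBPL1 and 2 and 11 in siNC. ZNF234 had 4 and 2, against 0 and 4, and ZNF160 had 3 and 3, against 2 and 3. Mutually exclusive exons were led by ZNF875, with 7 and 4 in siSTAMBPL1 and 4 and 4 in siNC. ZNF600 had 4 and 3 of them, against 1 and 1, and ZNF611 had 4 and 0, against 2 and 6.

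Events were spread unevenly over the genes. The median ZNF gene had 7 distinct events, against 10 in other genes, and the 10 with most events held 39.2% of the ZNF events. Those 10 were ZNF544 (218 distinct events), ZNF331 (174), ZNF875 (95), ZNF254 (72), ZNF302 (68), ZNF266 (60), ZNF559 (57), ZNF226 (50), the ZNF559-ZNF177 readthrough (39) and ZNF146 (38). ZNF146, also called OZF, has fingers and no KRAB domain. An event was found in all 4 libraries for 96 genes and in 1 library for 17. A PB transcript was never found for 45 of the 163.

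Grouped where neighbours lie within 1 Mb, the 250 RefSeq genes formed 16 clusters. The cluster at chr19:19668153-24129968 had an event in 16 of its 37 genes, and last exons made up 50.3% of its distinct events, while first exons made up 2.07%. ZNF254 alone held 72 of that cluster's 145 distinct events, and 42 of the 72 were last exon events. The cluster at chr19:51571283-53580269, which holds ZNF331, had first exons at 39.7%, and at 16.4% without that gene. The cluster nearest the end of the long arm, chr19:55476617-58489533, which holds ZNF544, had an event in 36 of 60 genes and last exons at 38.9%, and at 7.77% without that gene. Its events numbered 238 and 183 in siSTAMBPL1 and 208 and 249 in siNC. In the cluster at chr19:43530835-45076478 there were 114 and 86 events in siSTAMBPL1, against 132 and 137 in siNC, and in the cluster that holds ZNF331 there were 231 and 176, against 243 and 251. The groups overlapped in neither, at ratios of 0.743 and 0.824, against 0.756 in all other genes. In the latter cluster, ZNF331 alone had 54 and 45 events, against 106 and 78, and without it the groups overlapped.

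**Figure D4:**
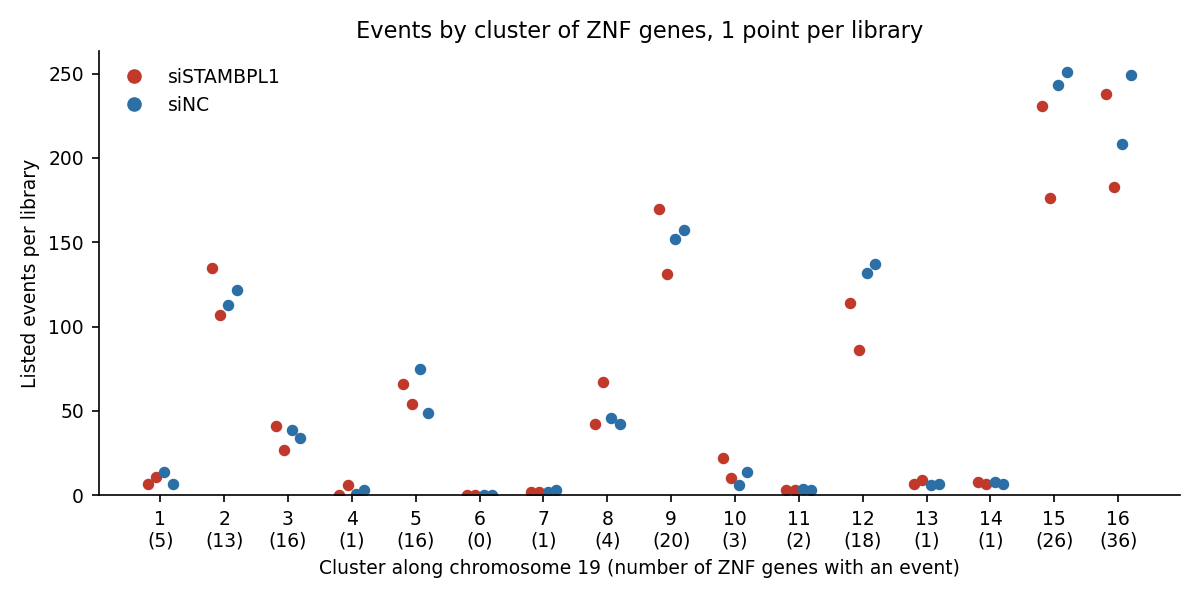
Listed events per library (y axis) in each of 16 clusters of ZNF genes in order along chromosome 19 (x axis, with the number of genes that had an event in brackets), red for siSTAMBPL1 and blue for siNC. Clusters 15 and 16 hold the most events, and in clusters 12 and 15 both siSTAMBPL1 libraries lie below both siNC libraries (114 and 86 against 132 and 137, and 231 and 176 against 243 and 251). In cluster 15 this rests on ZNF331, with 54 and 45 events against 106 and 78.

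In all, the ZNF genes had 1086 and 879 events in siSTAMBPL1, against 1049 and 1085 in siNC. The ratio of means was 0.921 and the groups overlapped (exact permutation test, two-sided, p = 1). In all other genes the ratio was 0.756, with both siSTAMBPL1 libraries below both siNC libraries. The log2 ratio of ZNF events to all other events was thus higher by 0.29 in siSTAMBPL1 than in siNC (exact permutation p = 0.333, the smallest that 2 against 2 allows). PB transcripts of the ZNF genes numbered 197 and 153 in siSTAMBPL1, against 187 and 184 in siNC.

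The first exon share of the ZNF genes was 19.3% ± 1.37 in siSTAMBPL1 and 21.4% ± 0.377 in siNC (SD, n = 2 each), a difference of −2.09 points (exact permutation p = 0.333). Without ZNF331 the difference was 0.233 points. The skipped exon share was 31.8% and 30.9%, the last exon share 18.8% and 18.2%, in siSTAMBPL1 and siNC. Events with an unannotated form were 36.2% and 36.9% of the ZNF events in siSTAMBPL1, against 39.3% and 37.9% in siNC. The difference was −2.05 points with ZNF331 and 0.877 points without it. In all other genes unannotated forms were 45.0% ± 4.62 in siSTAMBPL1 and 53.5% ± 0.056 in siNC. Over the 4 libraries the ZNF genes had 37.6% and all other genes 49.2%. Other genes on chromosome 19 had 42.6% and 32.5% in siSTAMBPL1 and 49.5% and 49.3% in siNC. In siSTAMBPL1 replicate 2 that was below the ZNF genes. ZNF genes on other chromosomes had 44.0% and 39.8% in siSTAMBPL1 and 48.8% and 49.5% in siNC.

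The number of events per gene was tested with limma on log2(scaled events + 1) over 9933 genes with at least 5 events. Of the ZNF genes, 132 entered, and the other 31 had fewer events. None passed an adjusted p of 0.05, nor did any of the 9933 genes (0% called in each direction). At an unadjusted p under 0.05, 8 ZNF genes were higher in siSTAMBPL1, against 2.95% of all genes tested, and 1 was lower, against 4.4%. After scaling, the groups did not overlap and siSTAMBPL1 was higher for 45 of the 132 genes (34.1%, against 22.5% of all genes). It was lower without overlap for 7 (5.3%, against 15.8%). Before scaling these counts were 15 higher (11.4%, against 4.93%) and 13 lower (9.85%, against 25.5%). Some of the 45 genes had equal numbers of events in all 4 libraries, among them ZNF444 and ZNF766 with 7 in each. Their separation came only from scaling to the smaller siSTAMBPL1 totals. The log2 change was above 0 for 86 of the 132 (65.2%, against 52.9% of all genes tested), with a median of 0.21, against 0.05. With annotated events alone the median was 0.11 in the ZNF genes and 0.11 in all genes tested.

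ZNF540 had the largest change, with 9 and 8 events in siSTAMBPL1 and none in siNC (log2 change 3.45 ± 0.38 SE, limma adjusted p = 0.367). ZNF431 had 3 and 4 events in siSTAMBPL1 and none in siNC, and ZNF417 had none in siSTAMBPL1, against 9 and 3 in siNC. These were the only tested ZNF genes with at least 3 events in both libraries of 1 group and none in the other. Of all genes tested, 0.332% had that pattern for siSTAMBPL1 and 1.87% for siNC. In ZNF540, 8 events were the same in both siSTAMBPL1 lists, among them 2 first exon events around exons at 37551406, 37594876 and 37595253 and the skipping of a 127-base and a 96-base exon. Of these 8 events, 6 rested on Ensembl transcripts in both forms. A library that listed a ZNF gene held on average 84.3% of that gene's annotated events, against 85.9% in all other genes. Annotated events of a gene thus come and go largely together and are not separate observations.

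The 8 largest changes upward without overlap after scaling included 6 genes besides ZNF540 and ZNF431. ZNF772 had 10 and 6 events in siSTAMBPL1, against 3 and 0 in siNC. ZNF20 had 11 and 8, against 7 and 0. ZNF320 had 6 and 6, against 0 and 4. ZNF573 had 22 and 11 events in siSTAMBPL1, against 0 and 16 in siNC, ZNF780A had 9 and 5, against 6 and 0, and ZNF780B had 6 and 5, against 0 and 6. Their log2 changes ran from 1.56 to 2.39, with limma adjusted p of 0.628 to 0.763. For ZNF573, ZNF780A and ZNF780B the groups overlapped or met before scaling. Each of the 6 had 1 siNC library with no event, and leaving that library out gave log2 changes of 0.24 to 1.45.

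Downward, ZNF283 had 10 and 0 events in siSTAMBPL1, against 14 and 19 in siNC, and ZNF613 had 4 and 0, against 7 and 9. ZNF701 had 1 and 1, against 2 and 6. ZNF614 had 3 and 2, against 6 and 5, and ZNF576 had 3 and 3, against 6 and 7. The log2 changes of these genes and ZNF417 ran from −2.51 to −0.57, and that of ZNF331 was −0.47 ± 0.26 (adjusted p = 0.763). With annotated events alone the direction turned for ZNF614 (0.40) and ZNF331 (0.28). ZNF283 and ZNF613 had no event in siSTAMBPL1 replicate 2, and without that library their log2 changes were −0.43 and −0.64.

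**Figure D5:**
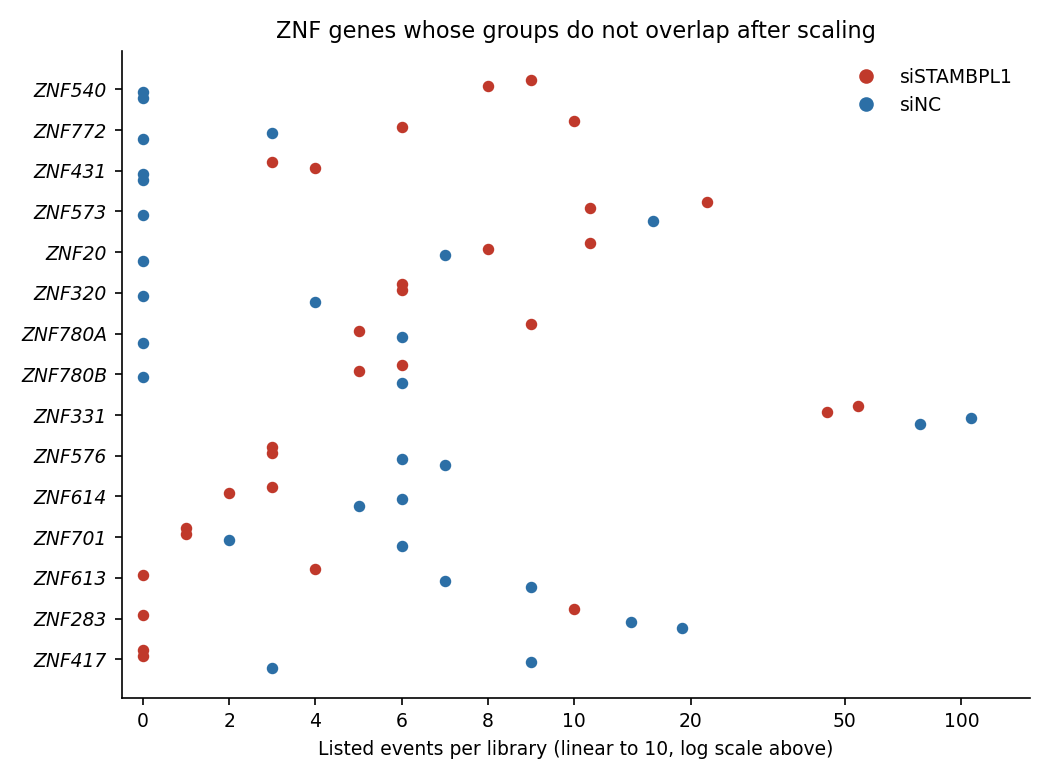
Listed events per library (x axis, linear to 10 and logarithmic above) for the ZNF genes with the largest log2 changes upward and downward whose groups did not overlap after scaling (rows), red for siSTAMBPL1 and blue for siNC. ZNF540 has 9 and 8 events in siSTAMBPL1 and none in siNC, and most other rows include 1 library at or near 0.

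The proteins through which KRAB domains act were looked at as a list of 30 genes. Of these, 29 were tested and none passed the adjusted threshold. Their log2 changes were above 0 for 15 and below 0 for 14, with a median of 0.03. TRIM28 had 13 and 14 events in siSTAMBPL1 and 15 and 8 in siNC (log2 change 0.65 ± 0.41, adjusted p = 0.763). SETDB1 had 58 and 41, against 67 and 23 (0.70 ± 0.57, adjusted p = 0.763). The H3K9 methyltransferase EHMT1 had 44 and 46 events in siSTAMBPL1, against 98 and 120 in siNC, without overlap (−0.85 ± 0.27, adjusted p = 0.628). Before scaling, 25.5% of all genes tested were lower in siSTAMBPL1 without overlap, as were PPHLN1, HDAC1, UHRF1 and others of the list. CBX5, which encodes HP1 alpha, had 7 and 0, against 7 and 4, MORC2 had 3 and 4, against 1 and 5, and PPHLN1, a HUSH complex subunit, had 25 and 20, against 63 and 36.

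Of the 2222 distinct events, 394 (17.7%) were on all 4 lists and 1335 (60.1%) on 1 list. Where both forms had Ensembl transcripts, 38.7% of 971 events were on all 4 lists, against 49.96% in all other genes. With an unannotated form it was 1.44% of 1251, against 1.72% in all other genes. The sources used do not say whether every Ensembl transcript on a list was seen in the reads or was added from the annotation of a detected gene, in which case annotated events would recur by construction. Events found in both siSTAMBPL1 libraries and in no siNC library numbered 47 (2.12%). Events found in both siNC libraries and in no siSTAMBPL1 library numbered 31 (1.40%). The 4 possible pairs of 1 siSTAMBPL1 and 1 siNC library had 60, 88, 30 and 35 events to themselves, and both counts within groups lay inside that range. In all other genes the shares within groups were 1.09% for siSTAMBPL1 and 3.46% for siNC. Those lay below and above the shares of all 4 pairs across groups (1.29% to 2.19%). ZNF540 had 8 of the 47, and ZNF227 and ZNF558 had 5 each, while ZNF331 had 9 of the 31. In ZNF558 the 5 events turn on introns and exons between positions 8821306 and 8822091.

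The 18 events with an unannotated form on all 4 lists fell in 9 genes. ZNF544 had 4 of them, ZNF114, ZNF180, ZNF45, ZNF559, ZNF567 and ZNF761 had 2 each, and ZNF146 and ZNF548 had 1 each. In ZNF180 both concern a longer form of the 127-base exon, from 44479283 to 44479479. In ZNF567 an unannotated last exon spans 36718948 to 36721320, or 2373 bases. An annotated last exon of that gene begins at the same position and ends at 36721327, so only the end differs. These forms recurred in siSTAMBPL1 and siNC alike, by the rule that chose them.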

How the data were processed

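Full-length cDNA of 4 Huh7 libraries was read on a PacBio Sequel, per the labels' protocols, and hg38 is named as the build by the submitters' processing notes. Sources used here give no aligner, transcript builder or event caller. The authors deposited 1 list of events per library. Per the file headers, a row holds the chromosome, gene, event and the transcripts of its forms, with no read number, so read depth is unknown and the values are neither counts of reads nor levels. Every row of a list was taken as an event of that library.

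Ensembl identifiers were named from RefSeq positions (GRCh38.p14) and strand, with at least 60% of positions within 50 bases and a lead of 1.5 times; 11556 of 11931 received 1 symbol. Of the 163 ZNF genes, 17 were named with a looser rule on the span covered, 71 touch another gene, and ZNF564 and ZNF581 were left out because 2 identifiers claimed each. Another 6 events lay at loci known only from long reads that overlap a ZNF gene and were not counted as ZNF events. In the shares, events at such loci stayed among all other genes, where their forms count as unannotated. That set held 9838 genes and loci in siSTAMBPL1 replicate 1, of which 9745 had an Ensembl identifier.

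Events per gene were scaled by the library's number of events and tested with limma 3.58.1 in R 4.3.3 on log2(events + 1), with Benjamini-Hochberg adjustment over all genes with at least 5 events. The fit was run on simulated data before use. Changed genes were simulated only among genes with many events, so that run does not speak for ZNF genes with few. Shares were compared by exact permutation over libraries (scipy 1.17.1), with Clopper-Pearson intervals at 95%. Alternatives were other scaling, filters, pseudocounts, annotated or PB events alone, distinct exons, a replicate block and each library left out, and, added after seeing the data, leaving out ZNF544 or ZNF331.

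Named genes were the 10 with most distinct events, up to 8 with the largest changes each way without overlap after scaling (8 upward and 7 downward), those present in 1 group only, and the leaders for each type. The members and lists were chosen with earlier results of these data known. Same-numbered replicates did not deviate together (r = 0.019).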

Additional observations from a re-analysis of the deposited data

How the results depend on the processing

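The differences between the ZNF genes and all other genes in first exon, skipped exon, last exon and unannotated shares kept their direction under every alternative run. Sizes moved by over 1.5 times for first exons (−9.16 points with distinct exons, −11.64 with annotated events), last exons (5.98 among genes touching no other gene, 7.95 without ZNF544) and unannotated forms (−5.77 for events with a PB transcript). Leaving out 1 library gave −19.51 to −19.10, 6.39 to 7.36, 11.5 to 12.5 and −13.94 to −10.38 points. The differences between siSTAMBPL1 and siNC did not all keep theirs. The ratio of ZNF events was 0.824 to 1.02 with 1 library left out, the highest without siSTAMBPL1 replicate 2. The last exon difference ran from −0.692 to 1.84 points with 1 library left out, was −1.51 points for annotated events and −0.0592 points without ZNF331. Without ZNF331 the first exon, skipped exon and unannotated differences became 0.233, −0.234 and 0.877 points; the cause was not tested beyond that gene's values above. With 1 library left out the first exon difference was −3.06 to −1.12, the skipped exon difference 0.429 to 1.26 and the unannotated difference −2.75 to −1.36 points.

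No ZNF gene was called with limma in any setting (0 with a replicate block, where the smallest adjusted p among them was 0.822). The lowest adjusted p was 0.0511, for ZNF540 with annotated events, where 11 genes that are not ZNF genes of chromosome 19 passed. The median log2 change of 0.21 was −0.10 without scaling (all genes −0.29), 0.040 with upper quartile scaling (all genes −0.14), 0.33 for events with a PB transcript, 0.11 for annotated events, and 0.21 to 0.37 with 1 library left out. Of 171 alternatives for 15 named genes, 169 kept direction; with annotated events ZNF614 had 0.40 and ZNF331 had 0.28. Allowing 10 bases between coordinates raised the mean share of events found in all other libraries from 38.7% to 45.0%. With no read numbers, an event missing from a list cannot be told apart from one too rarely read, and 2 libraries a group cannot reach p = 0.05 by permutation.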
